A study of Rattus norvegicus with 12 samples.

Results

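The torsins and their membrane cofactors were examined in fibroblast-like synoviocytes (FLS), the connective tissue cells of the joint lining, after treatment with taurochenodeoxycholic acid (TCDCA), a taurine-conjugated bile acid. The family was taken as 7 genes, the 5 torsins Tor1a, Tor1b, Tor2a, Tor3a and Tor4a and the 2 cofactors Tor1aip1 and Tor1aip2, which stood in 8 of the 22442 records of the expression table. Members were found by gene name, and of the 2 records named Tor1aip1 the one with the higher mean was used. The question was whether the lower level of Tor4a under TCDCA extended to the other torsins and to their cofactors. The gene Tor4a itself was selected on its own values in these libraries, so its differences from the untreated cells are given as a description without a test, and the other 6 members were tested.

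All cells came from male Sprague Dawley rats with adjuvant arthritis (AA), and were used as adherent cells at the third passage. DMEM medium without TCDCA was given to the FCA group, while TCDCA was added at 10 µM in AT10, at 1 µM in AT1 and at 0.1 µM in AT01. Every group was kept for 12 h and had 3 libraries of poly(A) RNA. Cells of healthy rats were not analysed here, so each comparison is within arthritic cells in culture. The replicates are described only as repeated sets, and nothing says that they came from separate animals or cultures, so p-values measure the spread between these libraries alone.

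Torsins are AAA+ ATPases, enzymes that use ATP to remodel other proteins, and they are unusual in working inside the endoplasmic reticulum (ER) and the space between the nuclear membranes. They have little ATPase activity alone. The membrane protein LAP1, encoded by Tor1aip1, activates them at the inner nuclear membrane, and LULL1, encoded by Tor1aip2, does so in the ER membrane. Tor1a encodes torsinA, whose mutation causes early-onset dystonia, and Tor1b encodes the closely related torsinB. Loss of torsin function is known for blebs of the inner nuclear membrane and for faulty nuclear pore assembly. Tor4a is the least studied member of the family.

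The values were FPKM, fragments counted per transcript length and per library size, which are corrected for length and can be set side by side between genes. Pairwise Pearson correlations of the 12 libraries on the log2(FPKM + 1) scale lay between 0.926 and 0.951, no columns were identical, and summed FPKM per library ran from 284210 to 309696. Of 11 fibroblast markers 9 were found and all 9 were at 1 FPKM or more, with a summed level of 4852 to 5575 FPKM in FCA and 3686 to 5172 FPKM under TCDCA. Vim, the intermediate filament of mesenchymal cells, was the most abundant of them at 2897 ± 214 FPKM in FCA (SD, n = 3) against 2578 ± 353 FPKM (SD, n = 9) under TCDCA. Fap, a fibroblast surface protease, had 11.9 ± 0.748 and 14.8 ± 1.32 FPKM, with a limma adjusted p of 0.295. Of the 9 fibroblast markers 7 had a lower mean on the log2(FPKM + 1) scale in the pooled comparison (median difference -0.15) and 8 did in AT10 (median -0.23), none with an adjusted p under 0.05 in limma, where 0.0258% and 0.172% of all records passed. The part of these levels in the results on torsins was not tested. Of 8 macrophage markers 5 were found and only Cd68 and Cd14 reached 1 FPKM, with a summed level of 6.48 to 21.87 FPKM in FCA and 5.71 to 21.41 FPKM under TCDCA, while Adgre1, Mrc1 and Csf1r were at or near 0. Of 6 endothelial markers 5 were found and none reached 1 FPKM. In such bulk samples a lower share of cells that express a gene and less RNA per cell cannot be told apart.

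Tor4a, on chromosome 3 in the RefSeq annotation of GRCr8, was the member that stood apart. The sequence in front of its annotated start site is shown here as a description. Its part in the lower level of Tor4a was not tested. It spans chr3:28406142-28406391 on the minus strand of GRCr8, the 250 bases before the annotated start, written 5′ to 3′ in the direction of transcription and with the letters of an AP-1 site in capitals.
Tor4a promoter: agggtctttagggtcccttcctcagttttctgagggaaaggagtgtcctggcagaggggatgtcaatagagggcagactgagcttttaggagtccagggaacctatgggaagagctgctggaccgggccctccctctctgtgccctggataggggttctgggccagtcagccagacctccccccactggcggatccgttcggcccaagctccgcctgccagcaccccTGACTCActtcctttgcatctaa

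The stretch had 59.6% G and C, against a median of 51.2% over 33469 RefSeq promoters, and 5 CpG pairs, which was the median number. Of 7 motifs searched on both strands only the AP-1 letters TGANTCA matched, beginning 23 bases before the start. N stands for any base here, so the pattern is wider than a strict AP-1 site, and the letters in Tor4a were TGACTCA. The pattern stood in 6.34% of all promoters of this length. Promoters were matched for 6 of the 7 members, and of these Tor3a matched the pattern too. The short glucocorticoid receptor site AGAACA (in 17.5% of all promoters), its palindrome with a spacing of 3 bases (0.0120%), the cAMP response element TGACGTCA (1.59%), the inverted repeat of the nuclear receptor site AGGTCA with a spacing of 1 base (0.0269%), the GC box GGGCGG (30.5%) and the TATA box TATAAA (12.9%) had no match in this window. Among the other members Tor1aip1 held AGAACA, and Tor1a, Tor2a, Tor3a and Tor1aip2 held GGGCGG. A match is a description of letters only, and binding was not measured.

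Tor4a (record MSTRG.10762) had 11.89, 13.05 and 9.66 FPKM in the FCA libraries. It had 0.66, 1.23 and 2.15 FPKM in AT10, 2.03, 3.60 and 0.96 FPKM in AT1, and 1.89, 0.86 and 1.32 FPKM in AT01. All 9 TCDCA libraries lay below all 3 FCA libraries, the highest of them at 3.60 FPKM against a lowest FCA value of 9.66 FPKM.

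The mean level was 11.5 ± 1.72 FPKM in FCA (SD, n = 3), and 1.35 ± 0.752, 2.20 ± 1.33 and 1.36 ± 0.516 FPKM in AT10, AT1 and AT01 (SD, n = 3 each). These means were lower than that of FCA by 8.56-fold, 5.25-fold and 8.50-fold. On the log2(FPKM + 1) scale, which understates the change of a low gene, the differences from FCA were -2.46, -2.05 and -2.42. The 3 comparisons share the same FCA libraries. Tor4a was chosen by its own differences in these comparisons, so no test outcome is given for it. The study called a gene lower at a difference beyond 1 on the log2 scale with an unadjusted p under 0.05. Of the 11611 records tested, 0.379%, 0.25% and 0.284% met these limits in AT10, AT1 and AT01, here with limma p-values on log2(FPKM + 1).

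The dose groups of Tor4a overlapped one another and showed no order by dose. The difference was -0.41 for AT10 against AT1, -0.03 for AT10 against AT01 and 0.38 for AT1 against AT01 on the log2(FPKM + 1) scale. The mean at the lowest dose, 1.36 FPKM, was close to that at the highest, 1.35 FPKM. Among the members, the widest gap between neighbouring values of Tor4a, 1.21 on the same scale, was the only one that separated FCA from TCDCA. Tor4a was chosen for that difference and the other members were not, so this gap is a description only.

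**Figure D1:**
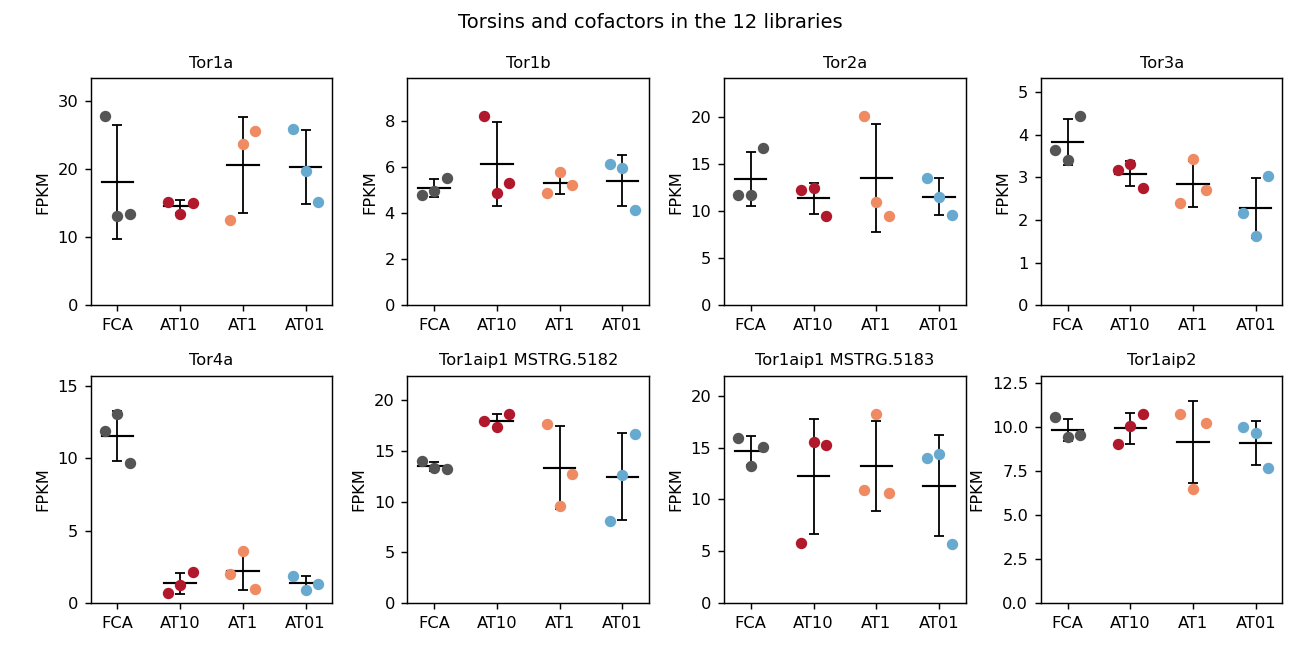
FPKM of each torsin and cofactor record in the 12 libraries (y axis, FPKM; x axis, group). Points are libraries, horizontal lines are group means and bars are SD (n = 3). Tor4a is at 9.66 to 13.05 FPKM in FCA and at 0.66 to 3.60 FPKM in the 9 TCDCA libraries, while the other records overlap between FCA and the pooled TCDCA libraries.

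The rank of Tor4a in FCA is given as a description, since its choice for a lower level under TCDCA favours a high FCA value. By mean FPKM the order was Tor1a (18.1), Tor1aip1 (13.5), Tor2a (13.4), Tor4a (11.5), Tor1aip2 (9.83), Tor1b (5.10) and Tor3a (3.83). Tor1aip1 stands here with record MSTRG.5182 alone, and with both its records summed it had 28.2 FPKM in FCA, above Tor1a. The ranges of neighbours overlapped down to Tor1aip2, and those of Tor1aip2 and Tor1b and of Tor1b and Tor3a did not. Tor4a thus exceeded 66.1% of the tested records in FCA. In each TCDCA group it had the lowest mean of the 7 genes, although its range overlapped that of Tor3a in AT1 and AT01.

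Tor4a made up 22.5% ± 4.95 of the summed FPKM of the 5 torsins in FCA (SD, n = 3) and 3.99% ± 1.97 under TCDCA (SD, n = 9). These shares rest on the same values that chose Tor4a. The other 4 torsins together had 40.4 ± 7.37 FPKM in FCA and 38.9 ± 5.40 FPKM under TCDCA. Their sums ranged from 33.23 to 47.95 FPKM and from 31.93 to 47.80 FPKM, which overlap. A higher level of the other torsins beside the lower Tor4a was not seen in these sums.

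None of the other 6 members passed an adjusted p of 0.05 in any comparison with FCA (limma on log2(FPKM + 1), Benjamini-Hochberg over 11611 records). The counts were 0 of 6 in AT10, in AT1, in AT01 and in the 3 doses pooled, where 0.172%, 0.0947%, 0.0947% and 0.0258% of all tested records passed. At an unadjusted p under 0.05, 1, 0, 1 and 1 of the 6 members were counted, against 11.9%, 11%, 6.6% and 12% of all records. The groups did not overlap for 2, 0 and 1 of the 6 members in AT10, AT1 and AT01, where 19.9%, 19.9% and 14% of all records did not overlap. In the 3 doses pooled 0 of the 6 members had groups apart, against 2.86% of all records. The members with unadjusted p under 0.05 were Tor1aip1 in AT10 and Tor3a in AT01 and in the pooled doses. The Tor1aip1 record used was chosen by a mean that included AT10.

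The 95% intervals of the 6 members reached from -1.03 to 1.16 on the log2(FPKM + 1) scale over the single doses, and from -0.70 to 0.65 over the pooled doses. None of these intervals held a difference as large as the -2.05 to -2.46 of Tor4a, by which it was chosen. Smaller differences stayed within these intervals. A low gene has less room to fall on this scale, so for Tor3a, at 3.83 FPKM in FCA, the comparison cannot decide the fold. By mean FPKM Tor3a was 1.24-fold, 1.35-fold and 1.68-fold lower in AT10, AT1 and AT01. Tor4a was 8.56-fold, 5.25-fold and 8.50-fold lower.

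**Figure D2:**
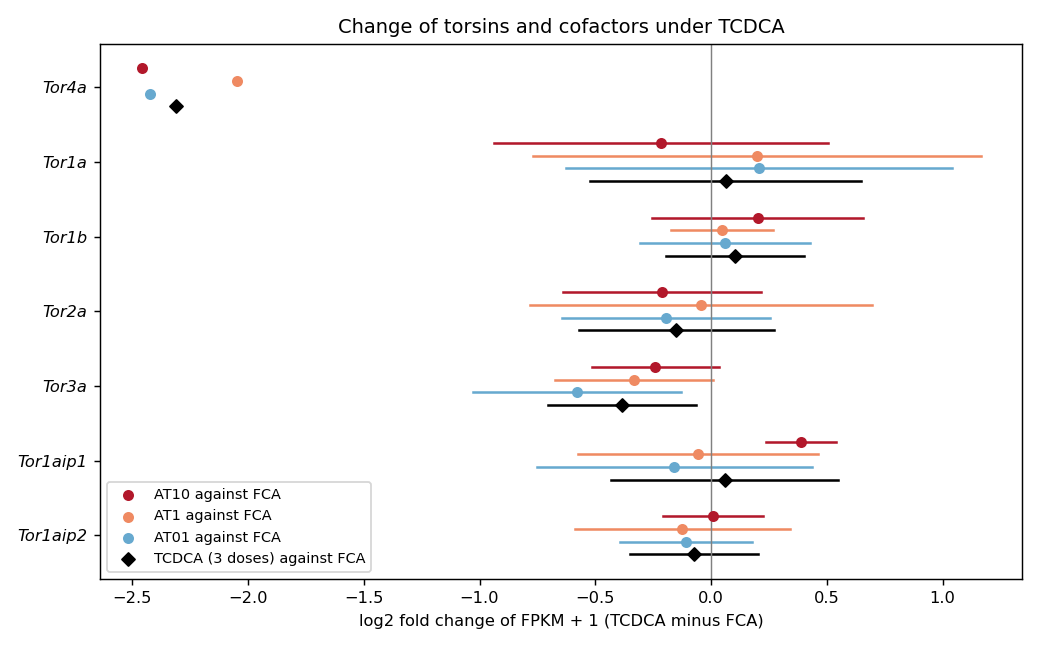
Difference between TCDCA and FCA for each member on the log2(FPKM + 1) scale (x axis), for each dose and for the 9 TCDCA libraries pooled. Lines are 95% limma intervals, and Tor4a, which was chosen by these values, has none. Tor4a lies between -2.46 and -2.05, and the intervals of the other members stay between -1.03 and 1.16.

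Tor1a and Tor1b stand next to each other on chromosome 3 of the same annotation, and neither followed Tor4a. Tor1a (MSTRG.10909) had 27.77, 13.09 and 13.44 FPKM in FCA, 15.16, 13.40 and 15.02 FPKM in AT10, 12.52, 23.62 and 25.57 FPKM in AT1, and 25.96, 19.67 and 15.15 FPKM in AT01. Its values formed an upper set of 5 libraries at 19.67 to 27.77 FPKM and a lower set of 7 at 12.52 to 15.16 FPKM, and both sets held FCA and TCDCA libraries. The pooled difference was 0.06 on the log2(FPKM + 1) scale, with a 95% interval of -0.52 to 0.65 and a limma adjusted p of 0.937. Its sign depended on single libraries, since it was -0.11 without FCA replicate 2 and 0.40 without FCA replicate 1.

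Tor1b (MSTRG.10908), which encodes torsinB, had 4.78, 4.98 and 5.54 FPKM in FCA, 8.22, 4.90 and 5.31 FPKM in AT10, 4.88, 5.78 and 5.24 FPKM in AT1, and 6.15, 5.95 and 4.16 FPKM in AT01. One AT10 library was high and the other values of all groups overlapped. The pooled difference was 0.10, with a 95% interval of -0.20 to 0.40 and a limma adjusted p of 0.782. The spread was narrow enough in AT1 to bound the difference at -0.17 to 0.27.

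Tor2a (MSTRG.10960), which encodes another torsin of the ER lumen, had 11.75, 11.75 and 16.70 FPKM in FCA, 12.24, 12.39 and 9.46 FPKM in AT10, 20.06, 10.91 and 9.47 FPKM in AT1, and 13.53, 11.49 and 9.59 FPKM in AT01. Only one FCA library and one AT1 library exceeded 13.53 FPKM. The pooled difference was -0.15, with a 95% interval of -0.57 to 0.27 and a limma adjusted p of 0.775. In the RefSeq annotation Tor2a overlaps Ttc16 on the opposite strand. Whether the counting used strand is not stated, so reads of these overlapping genes could have been shared.

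Tor3a (MSTRG.5190, chromosome 13), whose product is known as an interferon-responsive torsin, had the lowest FCA level of the family, and its mean FPKM was below that of FCA at each dose. It had 3.65, 3.41 and 4.43 FPKM in FCA, 3.17, 3.32 and 2.75 FPKM in AT10, 2.39, 3.43 and 2.71 FPKM in AT1, and 2.16, 1.63 and 3.03 FPKM in AT01. All AT10 and AT01 libraries lay below every FCA library, and in AT1 one library at 3.43 FPKM lay just above the lowest FCA value of 3.41 FPKM.

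The mean of Tor3a was 3.83 ± 0.533 FPKM in FCA and 3.08 ± 0.295, 2.84 ± 0.533 and 2.27 ± 0.707 FPKM in AT10, AT1 and AT01 (SD, n = 3 each). The differences on the log2(FPKM + 1) scale were -0.24, -0.33 and -0.58, with limma adjusted p-values of 0.456, 0.453 and 0.701. The two-sided exact permutation test gave p = 0.1, 0.2 and 0.1, where 0.1 is the smallest that 3 against 3 libraries allow. For AT01 the 95% interval was -1.03 to -0.13.

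Over the pooled doses Tor3a was at 2.73 ± 0.589 FPKM (SD, n = 9), and 8 of the 9 TCDCA libraries lay below all FCA libraries. The difference was -0.38 with a 95% interval of -0.70 to -0.07, an exact permutation p of 0.0364 (n = 9 and 3) and a limma adjusted p of 0.357. It did not pass the adjusted threshold. Tor3a, at 3.83 FPKM in FCA, had too little room on this scale to reach the -2.31 of Tor4a in the same pooled comparison. The sizes of these differences therefore cannot be compared on this scale. By mean FPKM, as given above, Tor3a was lower by a smaller fold than Tor4a at each dose.

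Tor1aip1, which encodes the nuclear membrane cofactor LAP1, had the member difference with the smallest p. Its record of higher mean, MSTRG.5182, had 13.99, 13.28 and 13.22 FPKM in FCA and 17.93, 17.34 and 18.67 FPKM in AT10. All AT10 libraries were above all FCA libraries, and both groups had a narrow spread. In AT1 it had 17.68, 9.54 and 12.78 FPKM and in AT01 8.11, 12.59 and 16.67 FPKM, which lay on both sides of FCA.

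The AT10 difference of this record was 0.39 on the log2(FPKM + 1) scale, or 1.33-fold by mean FPKM (18.0 ± 0.666 against 13.5 ± 0.428, SD, n = 3 each). Its 95% interval was 0.24 to 0.54, its limma adjusted p was 0.122, and the exact permutation p was 0.1. The AT1 and AT01 differences were -0.06 and -0.16, and the pooled difference was 0.06 with a limma adjusted p of 0.930. MSTRG.5182 was chosen by its mean over all 12 libraries, AT10 among them, so the choice favoured a high AT10 level. In FCA the other record, MSTRG.5183, had the higher mean (14.7 against 13.5 FPKM). In AT10 it had the lower one (12.2 against 18.0 FPKM).

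The second record of the name, MSTRG.5183, had a lower mean in AT10 than in FCA, through 1 library. It had 15.97, 13.19 and 15.03 FPKM in FCA, 5.82, 15.58 and 15.29 FPKM in AT10, 10.87, 18.27 and 10.61 FPKM in AT1, and 13.99, 14.38 and 5.67 FPKM in AT01. It holds 7 transcripts of which 2 carry Ensembl identifiers, whereas MSTRG.5182 is 1 assembled transcript with none. Its AT10 difference was -0.36 with a limma adjusted p of 0.701, and it rested on AT10 replicate 1 at 5.82 FPKM, without which it was 0.07.

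The share of MSTRG.5182 in the sum of both records was 46.7 to 50.2% in FCA and ranged from 34.3 to 75.5% under TCDCA. With both records summed, Tor1aip1 had 28.2 ± 1.75 FPKM in FCA, 30.2 ± 5.62 FPKM in AT10, 26.6 ± 2.79 FPKM in AT1 and 23.8 ± 2.75 FPKM in AT01 (SD, n = 3 each). The AT10 difference of the sum was 0.08 with a limma adjusted p of 0.830. In the sum, AT10 replicates 2 and 3 at 32.92 and 33.96 FPKM lay above all FCA libraries (highest 29.96 FPKM) and AT10 replicate 1 at 23.75 FPKM lay below them. AT01 replicates 1 and 3 at 22.10 and 22.34 FPKM and AT1 replicate 3 at 23.39 FPKM also lay below all FCA libraries (lowest 26.47 FPKM). The remaining AT1 and AT01 libraries lay within the FCA range.

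**Figure D3:**
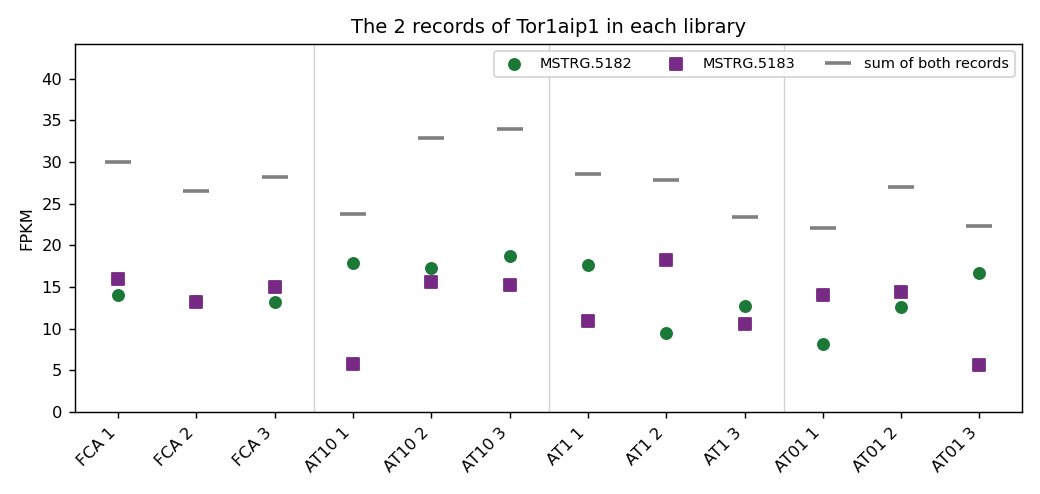
FPKM of both records named Tor1aip1 and of their sum in each of the 12 libraries (y axis, FPKM; x axis, library). The records lie close together in FCA, at 46.7 to 50.2% of the sum for MSTRG.5182, and apart in several TCDCA libraries, where that share runs from 34.3 to 75.5%.

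Tor1aip2 (MSTRG.5184), which encodes the ER cofactor LULL1, varied little. It had 10.54, 9.42 and 9.53 FPKM in FCA, 9, 10.02 and 10.73 FPKM in AT10, 10.71, 6.45 and 10.23 FPKM in AT1, and 9.99, 9.62 and 7.68 FPKM in AT01. Most values of all groups lay between 9 and 10.73 FPKM, and 2 TCDCA libraries were below. The pooled difference was -0.07, with a 95% interval of -0.35 to 0.20 and a limma adjusted p of 0.838. Tor1aip1 and Tor1aip2 overlap on opposite strands in the annotation, with the limit on strand given for Tor2a.

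Between the doses, 0 of the 6 members passed when AT10 was set against AT1 or AT01, or AT1 against AT01, where 0.258%, 0.0689% and 0.129% of all tested records passed in limma. At an unadjusted p under 0.05 the counts were 0 of 6 in each, against 6.46%, 4.97% and 3.43% of all records, and the lowest adjusted p of a member was 0.748. The groups did not overlap for 0, 1 and 0 of the 6 members, against 13.9%, 11.1% and 8.6% of all records. The one was Tor1aip1 in AT10 against AT01, with a difference of 0.55 for record MSTRG.5182 (95% interval -0.05 to 1.14). Its other record, MSTRG.5183, differed by 0.09 between these doses and overlapped, as did the sum of both.

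Genes around the torsins were counted in lists of related functions, which were chosen with earlier results of these data known. In every list 0 members passed the adjusted threshold in the pooled comparison, and the counts at an unadjusted p under 0.05 are given instead. Over all records 0.0258% passed the adjusted threshold and 12% had an unadjusted p under 0.05 in this comparison, and the list counts are read against these shares. The medians are read beside that of all 11611 records, 0.00306 on the log2(FPKM + 1) scale.

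The nuclear lamina and the LINC complex, which ties it to the cytoskeleton, had 12 tested members of 14, with 1 higher and 1 lower at an unadjusted p under 0.05 and a median difference of -0.02. Emd, which encodes the inner nuclear membrane protein emerin, was the most abundant at 264 ± 0.551 FPKM in FCA (SD, n = 3) against 265 ± 21.8 FPKM under TCDCA (SD, n = 9). Lmnb1, which encodes lamin B1, had 9.13 ± 1.56 and 11.2 ± 0.671 FPKM, with a difference of 0.28 and a limma adjusted p of 0.306.

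The nuclear pore complex had 25 tested members of 29, with 2 higher and 2 lower at an unadjusted p under 0.05 (12% over all records) and a median of 0.05. Tpr, which forms the nuclear basket, had 10.4 ± 2.33 FPKM in FCA (SD, n = 3) against 14.3 ± 1.70 FPKM under TCDCA (SD, n = 9), a difference of 0.44 with a limma adjusted p of 0.295. Sec13, a scaffold member shared with ER vesicle coats, was the most abundant at 35.4 ± 3.56 and 33.5 ± 2.66 FPKM. The member with the lowest difference, named here after its values were seen, was Nup62 of the central channel at -2.49, with a limma adjusted p of 0.406. It was at 0.15, 30.49 and 30.32 FPKM in FCA and between 0.08 and 28.60 FPKM under TCDCA, so that the groups overlapped.

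The ESCRT and lipin genes that reseal and feed the nuclear membrane had 10 tested members of 12, with 1 higher and 2 lower at an unadjusted p under 0.05 (12% over all records) and a median of 0.02. Mlf2, whose product gathers in nuclear envelope blebs of torsin-deficient cells, was the most abundant at 103 ± 18.2 FPKM in FCA (SD, n = 3) against 81.3 ± 10.6 FPKM under TCDCA (SD, n = 9), with a limma adjusted p of 0.355. Cnep1r1, a subunit of the lipin phosphatase, had 5.62 ± 0.271 and 7.39 ± 0.876 FPKM, with a limma adjusted p of 0.296.

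The other AAA+ ATPases had 14 tested members of 16, with 0 higher and 1 lower at an unadjusted p under 0.05 and a median of 0.00138. Vcp, which extracts proteins from the ER membrane, was the most abundant at 155 ± 5.76 FPKM in FCA (SD, n = 3) against 163 ± 9.65 FPKM under TCDCA (SD, n = 9), and Bcs1l, a mitochondrial assembly factor, had 10.9 ± 0.0794 and 9.65 ± 0.561 FPKM with a limma adjusted p of 0.339. ER chaperones and quality control had 17 tested members of 18, with 0 higher and 2 lower at an unadjusted p under 0.05 and a median of 0.07. Calr, the ER calcium-binding chaperone calreticulin, had 703 ± 35.9 and 645 ± 21.0 FPKM with a limma adjusted p of 0.351.

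**Figure D4:**
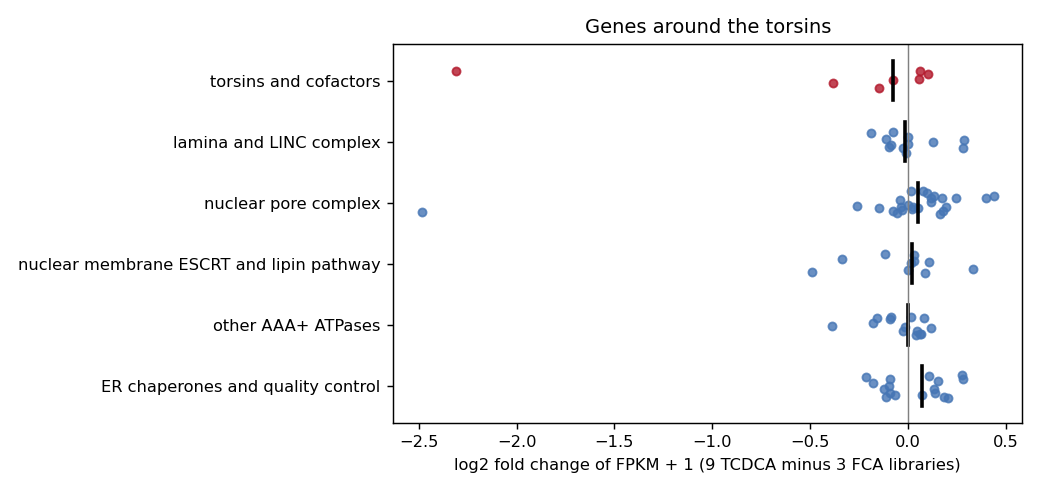
Difference between the 9 TCDCA and the 3 FCA libraries on the log2(FPKM + 1) scale (x axis) for the 7 torsins and cofactors and for 5 lists of related genes. Points are genes and vertical bars are medians over the tested genes. Tor4a at -2.31 lies far to the left of the other family members, Nup62 at -2.49 lies apart from the other nuclear pore genes, and the list medians lie between -0.02 and 0.07.

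As a description of likeness, the 5 named records with the highest Pearson correlation with Tor4a on the log2(FPKM + 1) scale over the 12 libraries were taken out of 11037. They were Morn4 (r = 0.92), Gnpda1 (0.92), Fbrs (0.91), RGD735029 (0.90) and Zfp652 (0.90). The points share the split into 3 FCA and 9 TCDCA libraries, and within the 9 TCDCA libraries the r was 0.71, 0.04, 0.60, 0.78 and 0.23. By ranks within these 9 libraries the correlation was 0.30, 0.20, 0.43, 0.55 and 0.25. The likeness of Gnpda1 and Zfp652 to Tor4a thus lay mostly in that split. For Morn4 and RGD735029, AT1 replicate 2 was the highest TCDCA library, at 4.94 FPKM (next 1.48) and 13.04 FPKM (next 10.10). It was also the highest for Tor4a, and r without it was not computed. None of the 5 was among the 5 most like Tor4a within the 9 TCDCA libraries.

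Gnpda1, which encodes an enzyme that turns glucosamine 6-phosphate to fructose 6-phosphate, had 25.1 ± 1.11 FPKM in FCA (SD, n = 3) against 8.29 ± 0.905 FPKM under TCDCA (SD, n = 9). Morn4 had 5.67 ± 0.261 FPKM in FCA and 1.63 ± 1.25 FPKM under TCDCA. In AT1 replicate 2, the TCDCA library with the highest Tor4a (3.60 FPKM), Morn4 was at 4.94 FPKM and RGD735029 at 13.04 FPKM, both near their FCA levels, while Gnpda1 was at 7.30 FPKM, within its TCDCA range. Of the family members, Tor3a had the highest r with Tor4a over the 12 libraries at 0.62, followed by Tor2a (0.22), Tor1aip2 (0.03), Tor1a (-0.01), Tor1aip1 (-0.20) and Tor1b (-0.31). Within the 9 TCDCA libraries the r was 0.23 for Tor3a, 0.13 for Tor2a, -0.38 for Tor1aip2, 0.16 for Tor1a, -0.37 for Tor1aip1 and -0.27 for Tor1b, so the value of Tor3a lay mostly in the split by which Tor4a was chosen.

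**Figure D5:**
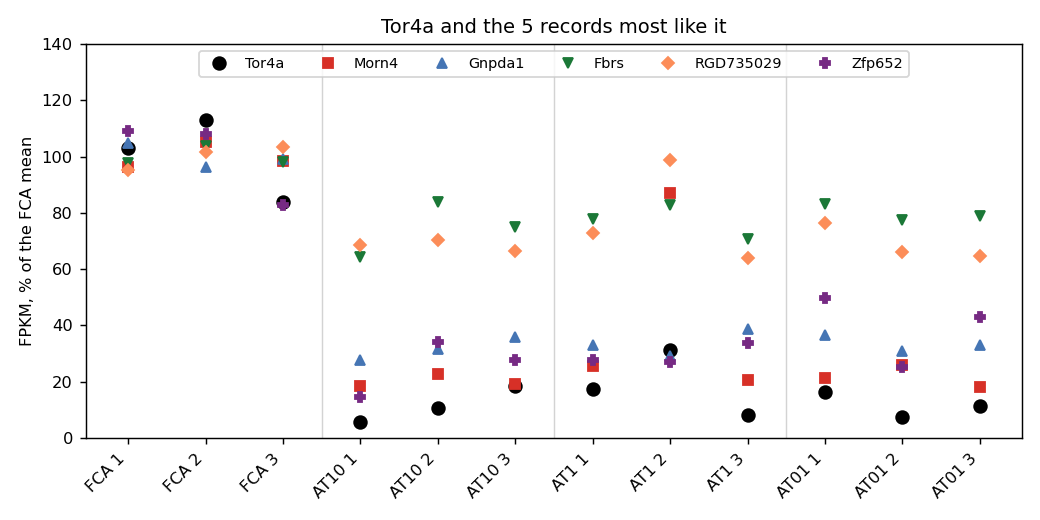
Tor4a and the 5 named records most like it over the 12 libraries, each as percent of its own FCA mean (y axis; x axis, library). All are lower in most TCDCA libraries, and in AT1 replicate 2 the values of Morn4 and RGD735029 lie near their FCA levels while Tor4a is at 3.60 FPKM.

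None of the 6 records nearest to Tor4a by assembly number, 3 on each side, was separated between FCA and TCDCA as Tor4a was, and AABR07051238.1 and Fam166a were at or near 0. Nelfb, the next record on one side and a subunit of the negative elongation factor, had 25.6 ± 0.239 FPKM in FCA (SD, n = 3) against 26.8 ± 3.46 FPKM under TCDCA (SD, n = 9). On the other side Nsmf had 2.31 ± 0.266 and 2.62 ± 0.440 FPKM, and Pnpla7 had 1.99 ± 0.180 and 1.98 ± 0.181 FPKM. Tubb4b, a beta tubulin, had 55.0 ± 33.5 FPKM in FCA and 77.8 ± 26.3 FPKM under TCDCA, with ranges of 32.77 to 93.56 and 33.87 to 107.08 FPKM that overlapped. The RefSeq annotation places LOC108350588 over Tor4a on the opposite strand. That gene was not analysed here, and its reads could not be set apart from those of Tor4a.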

How the data were processed

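Poly(A) RNA of 12 libraries, 3 in each of 4 groups, was sequenced. Per the study's methods and the submitters' processing notes, reads were trimmed with cutadapt, aligned with HISAT2, and assembled and merged with StringTie. The genome build is not given in the sources used here. The deposited values are FPKM per record, estimated by the authors with StringTie and Ballgown and rounded to hundredths. Reads behind single values are not known from the table, so no counting interval is given, and a low FPKM carries more counting error. The library preparation marked strands, but whether counting used them is not stated. The labels and the paper name different sequencers. Of 22442 records, 1992 have no gene name.

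Groups followed the sample titles. The 11611 records whose mean over the libraries reached 1 FPKM were compared on log2(FPKM + 1), 2 groups at a time, with limma 3.58.1 in R 4.3.3 (lmFit, eBayes with trend), and p-values were adjusted by Benjamini-Hochberg over all of them with a threshold of 0.05. Two-sided exact permutation tests used SciPy 1.17.1. The fit was tested on simulated data. All 7 members passed the 1 FPKM filter. Tor4a was left out of tests because its own contrasts had chosen it. The members and lists were chosen with earlier results of these data known.

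Besides the members, the 5 named records most correlated with Tor4a were named, and from each list the most abundant member and the one with the smallest unadjusted p in the pooled comparison. Symbols of a list without a record were not analysed here. Other settings concerned the pseudocount, the filter, the samples in the fit, a Ballgown-like F test, scaling, summing by gene name, a replicate block and leaving out libraries. The use of the annotated Tor1aip1 record was added after seeing the data. Promoter sequences and overlapping genes are from RefSeq GRCr8 and were matched by symbol, and the records near Tor4a were taken by their number in the StringTie assembly.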

Additional observations from a re-analysis of the deposited data

Results flagged for a closer look

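For each of the 8 records the highest and the lowest of the 9 TCDCA libraries were compared with their nearest neighbour, 16 ends in all, and 3 values lay further from the rest than the range of the 9 would let pass at the 95% level. Chance picks out about 1 in 20 such sets. The first was Tor4a in AT1 replicate 2, at 3.60 FPKM where the next TCDCA library had 2.15 FPKM. It passed only at the margin, with a gap of 0.4932 of the range against a limit of 0.493. This library remained below all 3 FCA libraries for Tor4a. The second was Tor1b in AT10 replicate 1, at 8.22 FPKM where the next TCDCA library had 6.15 FPKM, and without that library the AT10 difference of Tor1b fell from 0.20 to 0.00234 on the log2(FPKM + 1) scale. The third was Tor2a in AT1 replicate 1, at 20.06 FPKM where the next TCDCA library had 13.53 FPKM. The causes were not tested.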

How the results depend on the processing

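The count of called members other than Tor4a was 0 in all 7 comparisons under each alternative run, by limma and by the Ballgown-like F test, and 0 of 365 alternative values of these members with FCA had an adjusted p under 0.05, the lowest being 0.109. The sign changed in 25 of the 365. Under the Ballgown-like F test it did so for Tor1aip2 in AT10 (-0.00961) and AT1 (0.0902), for Tor1b in AT1 (-0.11) and AT01 (-0.0143) and for Tor1aip1 in AT1 (0.13). With the annotated Tor1aip1 record, an alternative chosen after seeing the data, Tor1aip1 turned to -0.36 in AT10 (0.07 when AT10 replicate 1 was left out too) and -0.33 in the pooled doses, and with FPKM summed by name to -0.0827 in the pooled doses. Leaving out 1 library at a time changed signs for Tor1a in AT10 (-0.39 to 0.12) and pooled (-0.11 to 0.40), Tor1aip2 in AT10 (-0.0434 to 0.0717) and AT1 (-0.24 to 0.0840), Tor2a in AT1 (-0.35 to 0.16) and pooled (-0.24 to 0.00799), Tor1b in AT1 (-0.00815 to 0.10) and AT01 (-0.0246 to 0.21), and Tor1aip1 in AT1 (-0.27 to 0.15) and AT01 (-0.38 to 0.10). Tor3a kept its sign in all settings run, from -0.76 to -0.15 over the single doses. With 1 library left out Tor4a ranged from -2.69 to -2.23 in AT10, from -2.35 to -1.74 in AT1 and from -2.58 to -2.27 in AT01. In the pooled doses it ranged from -2.42 to -2.22. With a pseudocount of 0.1 FPKM Tor4a was -3.13 in AT10, -2.51 in AT1, -3.05 in AT01 and -2.90 pooled. A minimum of 10 FPKM left out Tor1b, Tor3a, Tor4a and Tor1aip2.

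Of 18 pairs of same-numbered libraries 0 had deviations from the group means correlated over 0.1 (r from -0.11 to 0.09). The tests therefore took the libraries as unpaired. With 3 libraries behind each mean, such correlations cannot exclude that same-numbered libraries shared a culture or batch. With a replicate block, 0 of 6 members were called in each comparison, and Tor1aip1 in AT10 had 0.39 with a limma adjusted p of 0.371, against 0.122 without it. With 3 libraries a group the exact test cannot go below 0.1 for a single member.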

Other observations

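A few genes of the lists had uneven levels within a treatment, and they were picked out here after their values were seen. Nup62, a protein of the central pore channel, had 30.49 and 30.32 FPKM in FCA replicates 2 and 3 and 28.60 FPKM in AT01 replicate 2, and between 0.08 and 0.57 FPKM in the other 9 libraries. Cd14, a receptor of myeloid cells that fibroblasts also express, had 4.6, 3.60 and 3.72 FPKM in FCA replicate 3, AT1 replicate 1 and AT01 replicate 1, and between 15.70 and 18.82 FPKM in the other 9 libraries. Tor4a was at 9.66, 2.03 and 1.89 FPKM in those 3 libraries. Ist1, an ESCRT subunit, had 32.73 and 33.94 FPKM in FCA replicates 2 and 3 18.63 FPKM in FCA replicate 1 and between 16.62 and 23.44 FPKM in the 9 TCDCA libraries, with a pooled difference of -0.49 and a limma adjusted p of 0.311. The part of transcript assembly in such levels was not tested.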
